A study of Mus musculus with 3 samples.

Results

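Mitophagy receptor genes and the kinase gene Pink1 were examined for HIF1α binding in the mouse embryonic heart. The 6 genes, taken by name, were Bnip3, Bnip3l, Phb2, Pink1, Bcl2l13 and Fundc1, out of 21779 protein-coding genes of the nucleus. Every peak with its centre inside one of them or within 50 kb of either end was kept, which gave 15 of the 17289 peaks in the deposited list. Binding had been mapped with ChIP-seq, the sequencing of DNA that is pulled down with an antibody, in wild-type hearts of Black-Swiss embryos dissected at E12.5. The 3 libraries were 2 HIF1α pulldowns, made with 4 μg of antibody each, and 1 input, which is chromatin sequenced without antibody. The labels give neither the sex of the embryos nor whether the pulldowns came from separate pools of hearts.

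A peak carries a score, a whole number given by the authors on a scale that is not stated, and the number of calls merged into it. In the whole list the score ran from 2 to 3315 with a median of 2, and 11.5% of peaks had 2 merged calls. The list holds no value per library and read depth is unknown, so none of these values has an error across replicates and no test between samples could be made. A peak list also cannot show whether the tissue label is right, since it holds no marker expression.

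Mitophagy is the removal of mitochondria by autophagy. In one route, receptor proteins in the mitochondrial membrane bind LC3 or GABARAP proteins on the forming autophagosome. In the other, PINK1 accumulates on damaged mitochondria and phosphorylates ubiquitin, and adaptor proteins then bind the ubiquitin chains that form. HIF1α, the transcription factor subunit that cells stabilise when oxygen is low, is known to activate BNIP3 and its paralogue BNIP3L (also called NIX) in hypoxic cells. BNIP3L is known for clearing mitochondria from maturing red cells.

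The DNA under the peaks at Bnip3, Phb2 and Pink1 is shown because each lies whole within a promoter window of the RefSeq table (GRCm38.p6, the same build as mm10), running from 250 bases before to 50 bases after the annotated start. The promoter of Bcl2l13 is shown as a contrast without a peak. Each is written along the strand of its gene. Capitals mark the core of the HIF binding motif, ACGTG or GCGTG, or its reverse complement, CACGT or CACGC.
Bnip3 peak, chr7:138909572-138909680, minus strand: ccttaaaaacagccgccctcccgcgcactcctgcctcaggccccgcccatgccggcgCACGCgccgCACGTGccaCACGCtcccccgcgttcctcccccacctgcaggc
Phb2 peak, chr6:124712041-124712182, plus strand: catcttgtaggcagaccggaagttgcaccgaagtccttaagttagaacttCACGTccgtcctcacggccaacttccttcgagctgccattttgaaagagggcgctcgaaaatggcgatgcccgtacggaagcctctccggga
Pink1 peak, chr4:138326285-138326385, minus strand: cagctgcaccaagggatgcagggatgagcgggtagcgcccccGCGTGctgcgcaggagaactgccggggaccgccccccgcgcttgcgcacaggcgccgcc
Bcl2l13 promoter, chr6:120835980-120836279, plus strand: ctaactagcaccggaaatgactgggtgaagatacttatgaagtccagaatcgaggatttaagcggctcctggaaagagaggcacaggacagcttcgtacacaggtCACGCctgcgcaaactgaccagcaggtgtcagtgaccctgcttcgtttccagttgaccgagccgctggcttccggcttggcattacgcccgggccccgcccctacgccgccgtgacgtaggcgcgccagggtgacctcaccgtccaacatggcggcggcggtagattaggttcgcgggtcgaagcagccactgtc

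HIF1α peaks were strongest at the paralogues Bnip3 and Bnip3l, weaker at Phb2 and Pink1, and absent from the ends of Bcl2l13 and Fundc1. Of the 6 genes, 4 had a peak inside the gene or within 5 kb of an end, where 32.7% of all protein-coding genes did. A peak of 2 merged calls lay in that window at 3 of the 6 (Bnip3, Bnip3l and Phb2), against 9.04% of protein-coding genes. The peak counted for Phb2 had its centre inside the neighbouring gene Emg1 and was closer to the end of Emg1 than to Phb2. Bnip3 and Bnip3l each had 2 such peaks, and 0.473% of protein-coding genes had 2 or more. With the wider window of 50 kb, 5 of the 6 genes had a peak, against 64.8% of protein-coding genes, so nothing is read from that count. The genes were chosen with earlier results of these data known. The counts therefore describe these genes and are no independent evidence of an excess over the shares.

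**Figure D1:**
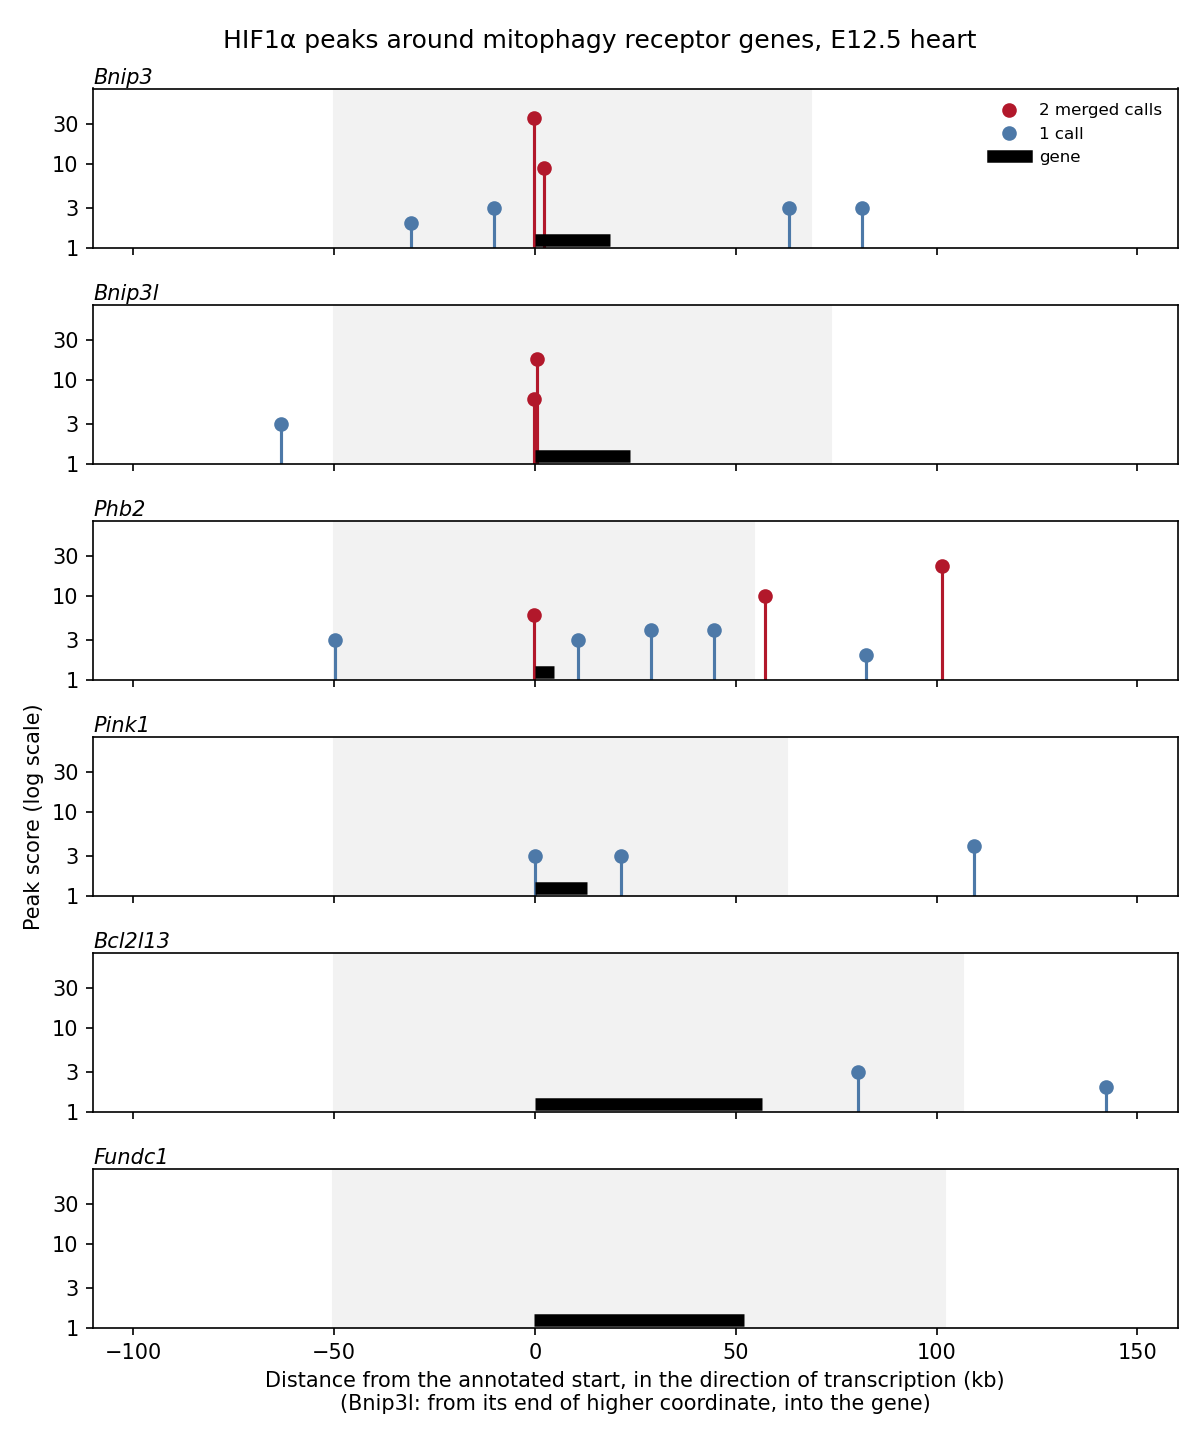
Peaks within 100 kb of each gene. The horizontal axis is the distance in kb from the annotated start along the direction of transcription (for Bnip3l, from its end of higher coordinate into the gene), the vertical axis is the peak score on a log scale, black bars are genes and grey areas reach 50 kb beyond them. Peaks of 2 calls (red) with scores of 36 and 18 stand at one end of Bnip3 and Bnip3l, and no peak appears at Fundc1.

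Among the 15 peaks, the 5 of 2 calls scored 6 to 36 and the 10 of 1 call scored 2 to 4. Over the whole list the scores of both kinds overlap: 706 peaks scored 6 or more, of which 581 were of 2 calls, and only 29.2% of all peaks of 2 calls reached that score. The member was the nearest protein-coding gene for 6 of the 15. The other 9 were closer to another protein-coding gene, and 8 of these lay within 1 kb of an end of that gene. Of the 15 peaks kept by the 50 kb rule, 8 thus stood at the end of a neighbouring gene. Among these 8 was the peak of 2 calls that also lay 178 bp from Phb2. The peak nearest to the limit on its inner side was 49.6 kb from Phb2, with a score of 3 from 1 call, and it lay 454 bp from Lpcat3. The nearest beyond the limit was 52.7 kb from Phb2, with a score of 10 from 2 calls.

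Bnip3, which encodes an outer-membrane receptor with a BH3-like region, spans 18.7 kb on chromosome 7 (138890836 to 138909506, minus strand). Its main peak scored 36 from 2 calls and had its centre 120 bp upstream of the annotated start. In the whole list, 39 peaks scored 36 or more, and 35 of them had 2 calls. A peak of 2 calls with at least this score lay within 1 kb of an end of 16 protein-coding genes, or 0.0735% of them. A second peak of 2 calls (chromosome 7, 138907188 to 138907312) scored 9 and was intragenic, 2256 bp downstream of the start. The centres were 2376 bp apart. Inside or within 5 kb, 32 protein-coding genes had a peak of 2 calls scoring 36 or more. Of these 32, 8 had 2 or more peaks of 2 calls in that window, Bnip3 among them.

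The other 3 peaks within 50 kb of Bnip3 were of 1 call. One scored 3 and lay 10.1 kb upstream, with Bnip3 as the nearest protein-coding gene and the pseudogene Gm9358 closer still, at 4065 bp. One scored 2 and lay 371 bp from Jakmip3. One scored 3 and lay 30 bp from an end of Ppp2r2d, which encodes a regulatory subunit of protein phosphatase 2A. With 5 peaks in all, Bnip3 was among the 2.63% of protein-coding genes that had as many or more within 50 kb.

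Bnip3l, whose product is the receptor that clears mitochondria from maturing red cells, spans 23.6 kb on chromosome 14 (66985238 to 67008877). Its 2 peaks were both of 2 calls and both at the end of higher coordinate. The stronger scored 18 and was intragenic, with its centre 527 bp from that end (67008297 to 67008403). The weaker scored 6 and lay 155 bp beyond the end (67008975 to 67009089). Their centres were 682 bp apart, closer than the pair at Bnip3. A score of 18 or more was held by 77 peaks in the list, 71 of them of 2 calls. In 36 protein-coding genes (0.165%) a peak of 2 calls scored that much within 1 kb of an end. No other peak lay within 50 kb, and Bnip3l was the nearest protein-coding gene for both. Both paralogues thus had 2 peaks of 2 calls nearest to the same end of the gene. Only at Bnip3l did both centres lie within 1 kb of that end. When peaks within 1 kb of each other were joined, Bnip3l kept 1 peak and Bnip3 kept its 5. At Bnip3 the outer peak was the stronger of the pair, whereas at Bnip3l it was the inner one.

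**Figure D2:**
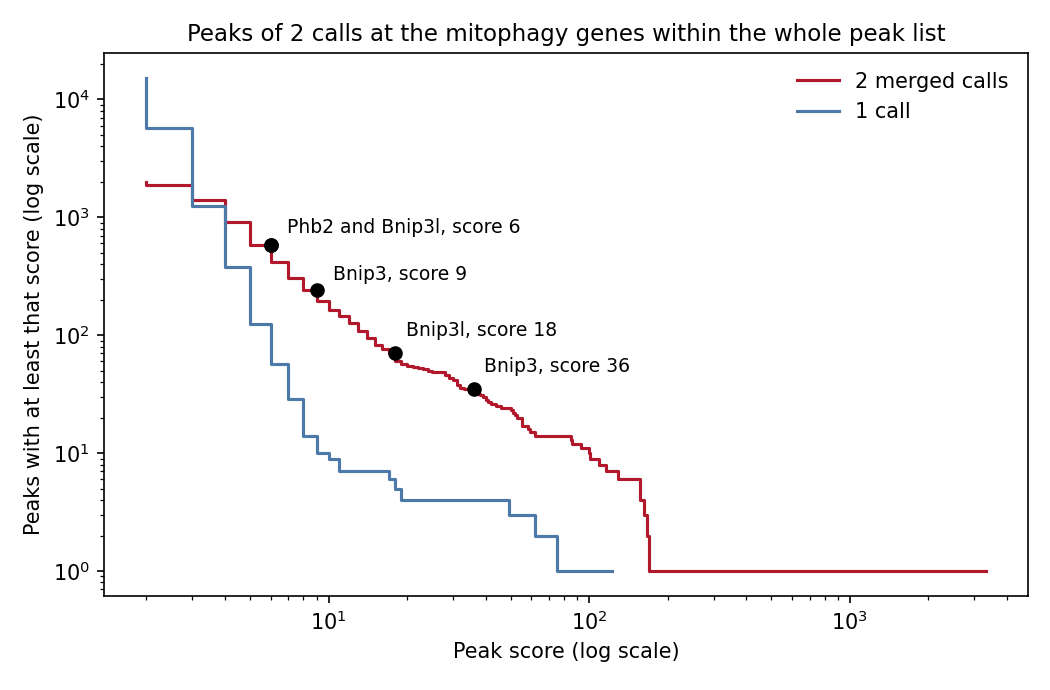
Number of peaks (vertical axis, log scale) with at least a given score (horizontal axis, log scale), for peaks of 2 merged calls in red and of 1 call in blue. Black points mark the 5 peaks of 2 calls at Bnip3, Bnip3l and Phb2, which run from a score of 6, reached by 581 peaks of 2 calls, to 36, reached by 35.

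Phb2 encodes prohibitin 2, a protein of the inner mitochondrial membrane that becomes a receptor when the outer membrane is broken. The gene spans 4.7 kb on chromosome 6 (124712289 to 124716945, plus strand). Its peak scored 6 from 2 calls, with the centre 178 bp upstream of the start. That centre lies inside Emg1, a gene for a ribosome biogenesis factor whose end is 102 bp from Phb2, and is only 75 bp from that end. The peak can therefore be assigned to Phb2 or to Emg1 alike. A score of 6 or more from 2 calls within 1 kb of an end was found at 383 protein-coding genes (1.76%). The other 4 peaks within 50 kb were of 1 call with scores of 3 or 4, and each lay closer to another gene (Lpcat3, Ptpn6, Grcc10 or Atn1). Its total of 5 peaks equals that of Bnip3, but Phb2 was the nearest protein-coding gene for 0 of them.

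Pink1, the gene of the kinase that starts the ubiquitin route, spans 12.9 kb on chromosome 4 (138313409 to 138326296, minus strand). A single-call peak scoring 3 had its centre 39 bp upstream of the start, the shortest distance to a gene end among all 6 genes. Such a score is common: 4472 peaks of 1 call scored exactly 3, and 7604 peaks (44% of the list) scored 3 or more. A further single-call peak scoring 3, at 8.6 kb, lay 32 bp from an end of Ddost, a gene for a subunit of the oligosaccharyltransferase. No peak of 2 calls lay within 100 kb of Pink1.

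Bcl2l13 encodes an outer-membrane receptor of the BCL2 family and spans 56.6 kb on chromosome 6 (120836206 to 120892842, plus strand). No peak lay inside it or within 5 kb. The single peak within 50 kb scored 3 from 1 call, was 23.9 kb away, and lay inside Bid, the gene of another BCL2-family protein, 309 bp from its end.

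Fundc1 encodes an outer-membrane receptor that binds LC3 in hypoxic cells and spans 52.4 kb on chromosome X (17519967 to 17572329, minus strand). No peak lay within 100 kb, and the nearest was 351.2 kb from the gene. Only 4.16% of protein-coding genes had their nearest peak as far or farther away. On chromosome X this was less rare, at 27.7% (267 of 963 genes). Peaks were sparser there, with 2.4 per Mb of the span holding annotated genes against 6.98 on autosomes. A peak inside or within 50 kb was found at 30.5% of genes on X and at 67.2% of autosomal genes. Whether the low density of X peaks accounts for Fundc1 was not tested. Its paralogue Fundc2, also on X, had its nearest peak 206.5 kb away.

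The promoter windows and peak sequences were searched on both strands for ACGTG and GCGTG. Of the 5 members with a window in the table, 4 held at least 1 match (Bnip3, Phb2, Pink1 and Bcl2l13), while 49.3% of 21263 windows of protein-coding genes did. Bnip3 held 4 separate matches. Of these, 3 lay inside its peak within 23 bp, at offsets of -117, -108 and -99 from the annotated first base, and the fourth was at -35. The match at -108 is the palindrome CACGTG, which reads as a match on both strands and occurs in 7.84% of windows. At least 4 separate matches were found in 3.23% of windows. The match nearest to the peak centre was 5 bp from it at Bnip3, 6 bp at Pink1 and 18 bp at Phb2, so each of the 3 printed peaks held 1 near its middle. Bcl2l13 had 1 match at -145 and no peak, and Fundc1 had neither. The Fundc1 window (17571958 to 17572257) lies wholly inside the gene span, which ends at 17572329. The sequence upstream of that end was therefore not searched.

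For comparison, the central 101 bp of all peaks lying within a promoter window were searched in the same way. A match was present in 60.8% of 475 peaks of 2 calls and in 42.0% of 757 peaks of 1 call. It was present in 83.7% of the 49 peaks of 2 calls that scored 10 or more. In a fixed stretch of 101 bases upstream of every annotated start, with or without a peak, it was present in 23.1%. At least 3 separate matches were found in 7.37% of the peaks of 2 calls, and in 10.2% of those that scored 10 or more. Base composition differed between these sets as well. The median number of CpG pairs was 10 in these peaks of 2 calls, 9 in those of 1 call and 4 in the fixed stretch upstream of all starts. Peaks of 2 calls that scored 2 or 3, 4 to 9, and 10 or more had medians of 9, 10 and 11. Their shares with a match were 44.4%, 62.9% and 83.7%. In the members' windows of 300 bases the number of CpG pairs was 27 for Bnip3, 29 for Phb2, 26 for Bcl2l13 and 18 for Pink1. The Fundc1 window, which lies inside its gene, held 12. The median of all windows was 13. The part of base composition in these matches was not tested, and a match is not proof of a site.

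**Figure D3:**
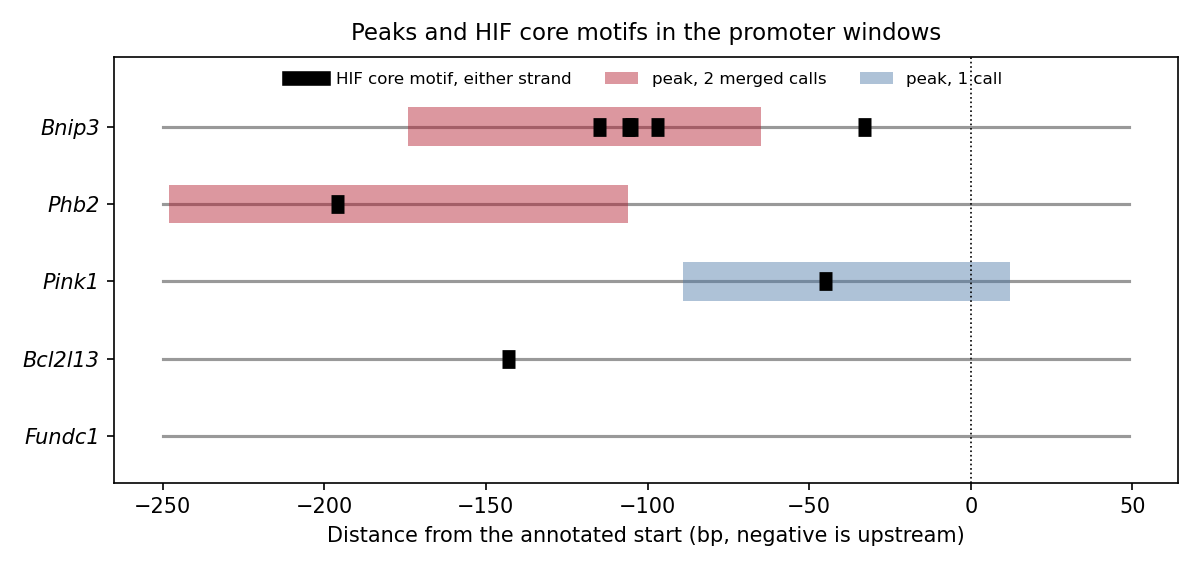
Promoter windows of 5 genes, with distance from the annotated start in bp on the horizontal axis. Shaded bars are peaks (red, 2 merged calls; blue, 1 call) and black blocks are matches to the HIF core motif on either strand. At Bnip3, 3 of the 4 separate matches fall inside the peak, at Phb2 and Pink1 the single match does, and Bcl2l13 has a match without a peak.

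The proteins that work with these receptors were examined through 38 partner genes. This list too was chosen with earlier results of these data known, so its counts are no independent evidence of an excess. Of these, 20 (52.6%) had a peak inside or within 5 kb, against 32.7% of protein-coding genes. With peaks of 2 calls there were 6 (15.8%), against 9.04%. These 6 include Fkbp8 and Bcl2l1, whose peaks of 2 calls lay closer to an end of another gene (Ell and Cox4i2). Within 1 kb of a gene end there were 16 (42.1%), against 16.2%. No partner approached Bnip3 or Bnip3l in score: the highest score at any of the 38 was 7.

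On the PINK1 route, 7 of 15 partners had a peak, against 32.7% of protein-coding genes. None had one of 2 calls (0 of 15), where 9.04% of protein-coding genes did. A count of 0 allows a share of up to 20%, taken as 3 of 15, so this count cannot be told from the background. Vdac1, which encodes a channel of the outer membrane, had 2 single-call peaks, and the nearer one scored 6 at 49 bp from an end. Usp30 and Usp8 encode deubiquitinases that act on this route. Single-call peaks scoring 4 lay 3 bp from Usp30 and 77 bp from Usp8. The genes of the rhomboid protease PARL (21 bp), the phosphatase PGAM5 (53 bp) and the mitofusin MFN1 (161 bp) had peaks of score 3. Oma1 held a peak of score 2 deep inside the gene. The 8 without a peak were Fbxo7, Usp15, Mul1, Marchf5, Tomm7, Tomm20, Mfn2 and Rhot1.

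Among 6 genes for ubiquitin-binding adaptors and their kinase, 5 had a peak, against 32.7% of protein-coding genes. Within 1 kb of an end there were 3 of the 6, against 16.2%. Sqstm1, the gene of the adaptor p62, had a 2-call peak scoring 4, 546 bp from its end. Nbr1 (score 4), Tbk1 (3), Tax1bp1 (3) and Optn (2) had peaks of 1 call, and those of Optn and Tax1bp1 lay 20.7 and 16 kb from an end. The Nbr1 peak was 854 bp from an end of Nbr1 and 1006 bp from Brca1. The Tbk1 peak was 138 bp from Tbk1 and 448 bp from Xpot. Of 5 genes for LC3 and GABARAP proteins, 3 had a peak, against the same 32.7%. Map1lc3b had 2 peaks of 2 calls, both of score 4, with the nearer at 44 bp. Gabarap had a 2-call peak scoring 4 at 313 bp, which was 456 bp from Ctdnep1. Map1lc3a had a single-call peak scoring 2 at 948 bp. Of 4 initiation genes, 1 had a peak, again against 32.7%: Ambra1, with a 2-call peak scoring 3 at 45 bp.

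Other receptors and paralogues had peaks in 4 of 8 cases, against 32.7% of protein-coding genes. Fkbp8, which encodes a further LC3-binding receptor, had a single-call peak scoring 4 at 135 bp. Its peak of 2 calls scored 7, the highest among the partners, but lay 4215 bp from Fkbp8 and 132 bp from Ell. Bcl2l1 had a 2-call peak scoring 5 at 4218 bp, which was 598 bp from Cox4i2, the gene of a hypoxia-induced subunit of cytochrome c oxidase. Nipsnap2 had a single-call peak scoring 4 at 1 bp. Phb, the paralogue and partner of Phb2, had a single-call peak scoring 3 at 198 bp, where the Phb2 peak scored 6.

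**Figure D4:**
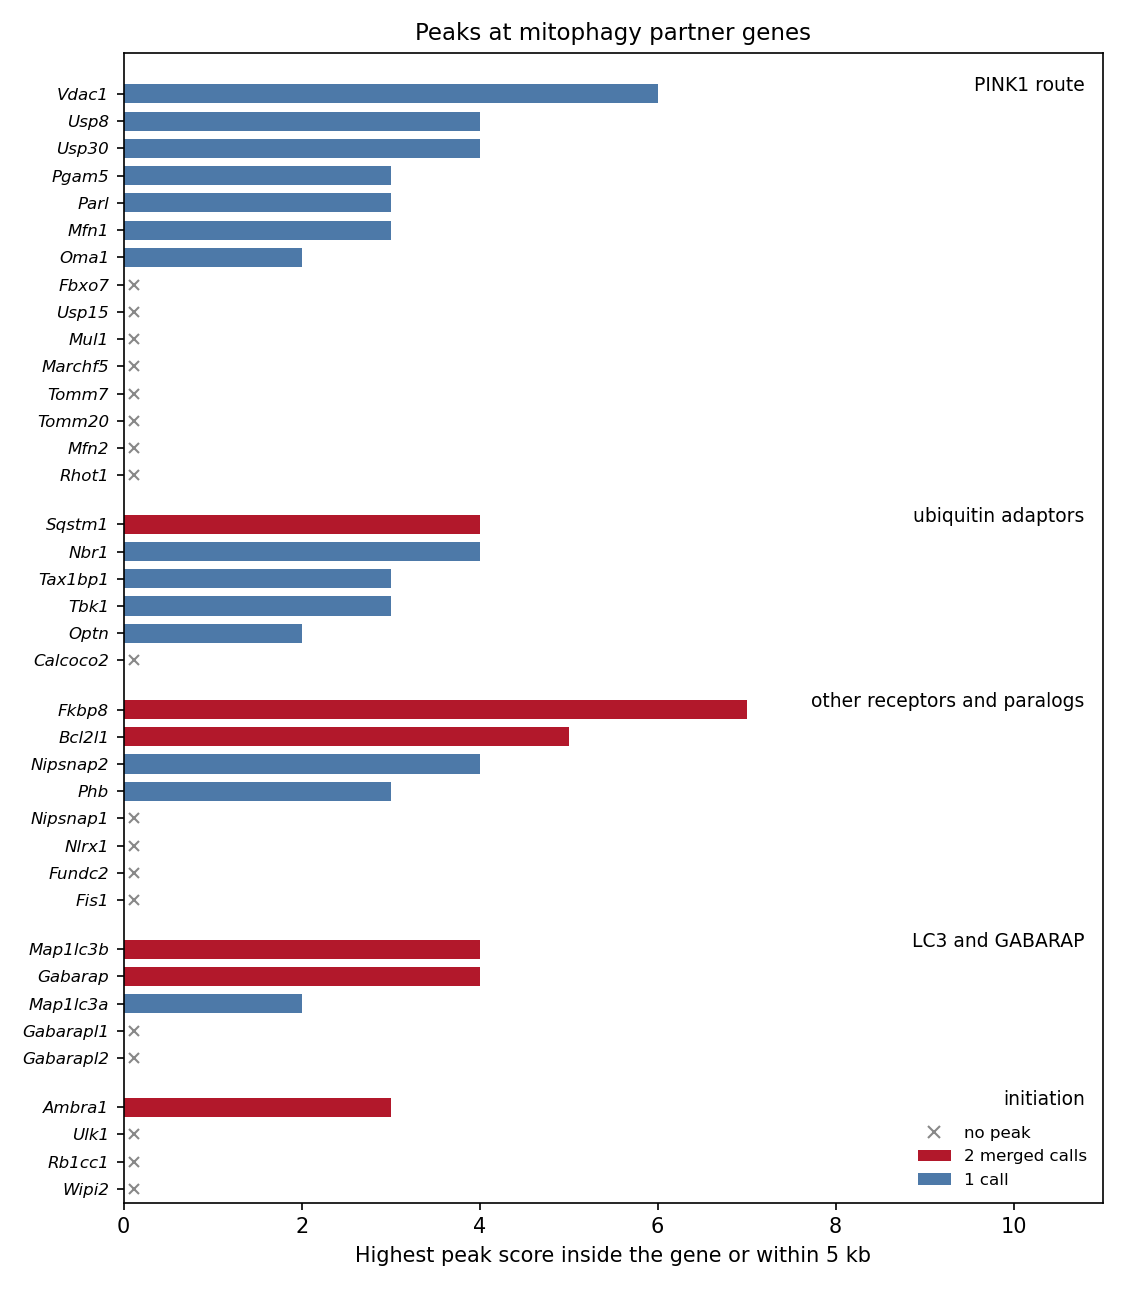
Highest peak score (horizontal axis) inside each of 38 mitophagy partner genes or within 5 kb, by group. Bars are red for peaks of 2 merged calls and blue for 1 call, and crosses mark genes without a peak. No bar exceeds 7, and no bar of the PINK1 group is red.

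Genes most like the members were those whose best peak of 2 calls within 1 kb of an end was closest in score, and then in distance, in this one merged list. For Bnip3 (36 at 120 bp) they were Seh1l (37 at 66 bp), Fam162a (33 at 116 bp) and Gabpb2 (39 at 169 bp). Seh1l encodes a nuclear pore protein and Fam162a a mitochondrial protein. None of these 3 had a second peak of 2 calls within 5 kb. For the stronger Bnip3l peak (18 at 527 bp) the 3 genes with an equal score were Rab24 and Prelid1, which share 1 peak, and Rps3a1. For Phb2, 117 other genes had the same score, and the closest in distance were Zfp568 (178 bp), Neurl2 (176 bp) and Erh (181 bp).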

How the data were processed

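Chromatin was cross-linked with 1.5% formaldehyde for 10 minutes, sheared to about 200 bp and precipitated, per the labels' protocols. Reads were handled with Bowtie2 and HOMER on mm10, per the submitters' processing notes, without versions. The authors deposited 1 list, merged from peaks that were called in each of 2 pulldowns against the same input, per the file headers. The deposited score is the authors' own and has no stated scale, so it serves only to rank peaks. Neither the calling threshold nor the merging rule was found in the labels or header. The last number of a peak's name was read as its merged calls. Input levels and a filter for artefact-prone regions were not used here.

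Peak centres were set against the gene spans of RefSeq GRCm38.p6 with pandas 2.3.3, leaving out genes that start below 3 Mb on chromosomes other than Y, which belong to unplaced sequence. All 6 members and all 38 partner genes used matched by symbol. A further gene of the planned list is not reported here. A promoter window was matched for 5 members. A gene end is either end of the span, and exons, introns and UTRs were not told apart. Peak assignment was checked against a direct count on simulated peaks. Named genes were the members, partners near a peak, the 3 most similar genes of each member with a peak of 2 calls, and the nearest protein-coding gene of each peak. For some partner peaks the next nearest was named as well. The members and gene lists were chosen with earlier results of these data known. No p-value was computed. Protein sequences were not used here.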

Additional observations from a re-analysis of the deposited data

How the results depend on the processing

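The count of members with a peak inside or within 5 kb was 3 to 5 under windows of 1, 10 and 50 kb, any overlap, gene ends alone, annotated starts alone (known for 5 members), and scores of at least 3 or 4, against 4. The share of protein-coding genes ran from 12% to 64.8% over these settings, against 32.7%. With peaks of 2 calls the same settings gave 3, except that annotated starts alone gave 2 of the 5 members with a listed start, Bnip3l having none. The share of protein-coding genes with such a peak ran from 6.49% to 21.4%, against 9.04%. The partner count of 20 of 38 became 10 at scores of at least 4 (12% of protein-coding genes) and 6 with peaks of 2 calls (9.04%). The 15 member peaks became 6 with a 5 kb window, 5 with 2 calls and 6 when the member had to be the nearest protein-coding gene. Joining peaks within 1 kb of each other gave 14, with Bnip3l going from 2 peaks to 1. The highest score, 36, did not move under the 7 settings tried. None of them could remove its peak, which has 2 calls and lies 120 bp from Bnip3, its nearest protein-coding gene. With ACGTG alone, 2 of 5 member promoters held a match (20.9% of all coding promoters), against 4 with both motif forms (49.3%). Of 84 values for single members, counts of peaks and highest scores, 22 moved. A highest score was taken as moved on any change, but a count of peaks only on a larger change. Smaller changes in counts are therefore not among the 22. No paired analysis was possible because the list holds no value per pulldown, and for the same reason no pulldown could be left out. Depth is unknown, so a gene without a peak is one where none was called. The planned comparison of member proteins was not run.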

Other observations

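The paralogues Bnip3 and Bnip3l each lie beside a gene for a B-type regulatory subunit of protein phosphatase 2A. Ppp2r2d is 7.8 kb from Bnip3 and Ppp2r2a 5.2 kb from Bnip3l. Each neighbour had a single-call peak scoring 3 at its far end, 30 bp from that end for Ppp2r2d and 375 bp for Ppp2r2a. The peak of Ppp2r2a is 63.2 kb from Bnip3l and so outside the 50 kb window, whereas that of Ppp2r2d is 44.5 kb from Bnip3 and inside it.

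Beyond 50 kb from Phb2 the same stretch of chromosome 6 held 2 stronger peaks of 2 calls at glycolysis genes. One scored 10 and lay 43 bp from an end of Eno2 (enolase 2), 52.7 kb from Phb2. The other scored 23 and lay 526 bp from an end of Tpi1 (triosephosphate isomerase), 96.7 kb from Phb2.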
